A study of Mus musculus with 12 samples.

Results

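Postn, Cilp, Tnc, Fn1, Comp, Meox1, Fap and Cthrc1 are 8 genes known from activated fibroblasts, the cells that lay down scar matrix in the stressed heart. They were taken by gene name from a table of 55421 genes measured by RNA sequencing in mouse ventricle. All 8 were found, and all 8 passed edgeR's filter on low counts.

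Fibroblasts of the unstressed heart keep up a thin network of collagen between the muscle cells. Under pressure load, injury or angiotensin II (Ang II), a peptide hormone that constricts vessels and acts on heart cells through its own receptors, a portion of them switch to a secretory state that is driven in large part by TGF-beta. Postn, which encodes the secreted protein periostin, is the usual marker of that state in the mouse heart, and Cilp is known as a heart fibroblast gene that responds to the same stimuli.

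The mice were wild type, and each of the 3 groups gave 4 ventricular libraries. One group received Ang II from an osmotic pump under the skin together with Forsythoside I (FI), a phenylethanoid glycoside, which was injected into the peritoneum at 50 mg/kg on alternate days, beginning the day before the pump was placed and ending on day 14. The Ang II group had the pump and vehicle, and the saline group had saline and vehicle. The comparisons ask what Ang II does to the ventricle and whether FI alters that. The sources used here do not give the strain, sex, age or Ang II dose, nor do they tie each library to an animal, so p-values measure the spread between these libraries.

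Total counts were between 68874852 and 80624227 per library, and mitochondrial transcripts took 29.1% to 38.8% of them. The tissue label held, since 8 markers of ventricular muscle summed to between 33022 and 48057 CPM (counts scaled to a common library total) and 3 atrial markers to no more than 2.61 CPM. One library stood apart. In Ang II + FI replicate 3, 13 hepatocyte markers summed to 23662 CPM, against 43.6 CPM in Ang II replicate 3 and 3.39 to 8.72 CPM in the other 10 libraries. Fits of the 8 genes with FI are therefore given with all 12 libraries and again with 11, without Ang II + FI replicate 3. In whole ventricle, fewer cells of a type and less RNA per cell cannot be told apart.

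Promoters are shown for Postn, Cilp and Tnc because only these 3 of the 8 genes were found in the RefSeq table of promoters (GRCm38.p6, 250 bases before to 50 after the transcription start). All 8 genes had a log2 fold change above 0 for Ang II over saline, so direction does not set these 3 apart. Each sequence is on the gene's own strand, 5′ to 3′. Capitals mark TATATAA, a form of the TATA box, the element near the start at which the basal transcription machinery can assemble. The Postn promoter, for the downstream of its RefSeq starts, lies at chr3:54360857-54361156 (plus strand), the Cilp promoter at chr9:65264930-65265229 (plus strand) and the Tnc promoter, for the downstream of its RefSeq starts, at chr4:64046887-64047186 (minus strand).
Postn: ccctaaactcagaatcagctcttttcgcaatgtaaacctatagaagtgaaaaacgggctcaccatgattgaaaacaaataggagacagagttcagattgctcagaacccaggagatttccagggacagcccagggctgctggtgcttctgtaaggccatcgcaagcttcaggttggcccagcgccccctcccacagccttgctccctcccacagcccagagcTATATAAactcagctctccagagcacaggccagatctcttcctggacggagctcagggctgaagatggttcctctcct
Cilp: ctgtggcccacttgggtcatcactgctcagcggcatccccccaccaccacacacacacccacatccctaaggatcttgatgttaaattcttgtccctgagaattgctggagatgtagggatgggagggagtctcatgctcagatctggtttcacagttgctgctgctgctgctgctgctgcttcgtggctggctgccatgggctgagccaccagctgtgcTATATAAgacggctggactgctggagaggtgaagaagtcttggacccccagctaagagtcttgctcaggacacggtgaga
Tnc: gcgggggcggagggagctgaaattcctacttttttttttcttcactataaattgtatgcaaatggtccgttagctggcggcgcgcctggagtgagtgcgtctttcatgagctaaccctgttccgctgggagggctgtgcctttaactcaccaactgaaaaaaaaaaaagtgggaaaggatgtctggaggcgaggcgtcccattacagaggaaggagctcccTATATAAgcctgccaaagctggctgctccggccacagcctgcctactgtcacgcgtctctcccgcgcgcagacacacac

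The TATATAA match begins at base -28 from the start in Postn, -30 in Cilp and -29 in Tnc. The windows of the other RefSeq starts of Postn (chr3:54359017-54359316) and Tnc (chr4:64046966-64047265) held no such match. The same letters occur somewhere in 3.24% of 32851 RefSeq promoters of this length, searched on both strands, and in 0.578% of them on the gene's strand with a first base between -40 and -20. Neither TGANTCA, the AP-1 consensus, nor GGAATG, a TEAD consensus, was found in these 3 windows, and they occur in 7.81% and 14.7% of all promoters. CAGACA, a SMAD element found in 21.0% of all promoters, occurred in the Tnc window and not in the other 2. These are matches of letters in a window and not evidence of binding.

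Postn, on chromosome 3 at 54361109 to 54391037 (GRCm38), encodes a matricellular protein that binds integrins and helps to cross-link collagen. Its levels in the 3 groups did not overlap. The Ang II + FI libraries, in order of replicate number, had 86.9, 64.1, 59.4 and 75.0 CPM. The Ang II libraries had 120, 128, 105 and 131 CPM, and the saline libraries had 36.5, 35.6, 39.7 and 25.1 CPM. No Ang II + FI library reached the lowest Ang II library, and none came down to the highest saline library. Means were 71.3 ± 12.2 CPM in Ang II + FI, 121 ± 11.7 CPM in Ang II and 34.2 ± 6.36 CPM in saline (SD, n = 4 each).

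Cilp, on chromosome 9 at 65265180 to 65280605, encodes cartilage intermediate layer protein, a secreted matrix protein that can bind TGF-beta. Its libraries had 26.4, 21.9, 21.8 and 22.7 CPM in Ang II + FI, 37.6, 37.6, 34.0 and 34.2 CPM in Ang II, and 9.89, 9.08, 11.8 and 6.76 CPM in saline. The order of the groups was that of Postn, again with no overlap between any pair of groups. Means were 23.2 ± 2.17 CPM in Ang II + FI, 35.8 ± 2.01 CPM in Ang II and 9.38 ± 2.08 CPM in saline (SD, n = 4 each).

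Both genes rose under Ang II. Ang II over saline gave a log2 fold change of 1.80 ± 0.16 (SE) for Postn, with an adjusted p of 0.000716 in edgeR's quasi-likelihood test. For Cilp it was 1.91 ± 0.15, with an adjusted p of 0.000298, the smallest of the 17376 genes tested. As a ratio of mean CPM, Ang II stood 3.53-fold above saline for Postn and 3.82-fold for Cilp. Both calls held in all 23 alternatives with 12 libraries, with adjusted p no higher than 0.00584 for Postn and 0.00443 for Cilp. Markers of other cells also differed with Ang II. The 10 macrophage markers summed to 330 to 375 CPM in Ang II and 205 to 251 CPM in saline. All 10 were above 0 on the log2 scale, with 5 called higher (Cd68, C1qa, C1qb, C1qc and Mrc1). The 8 markers of resting fibroblasts summed to 2137 to 2410 CPM in Ang II and 1629 to 2186 CPM in saline. Of these 8, 6 were above 0 and 2 below, with 3 called higher (Pi16, Cd34 and Lum). Smooth muscle and pericyte markers summed to 786 to 946 CPM in Ang II and 630 to 801 CPM in saline, with all 6 above 0 on the log2 scale and 1 called higher (Cnn1). Mesothelial markers summed to 2.70 to 4.82 CPM in Ang II and 1.27 to 4.55 CPM in saline. Of the 5 tested, 3 were above 0 and 2 below, and 1 was called higher (Upk3b). The 8 ventricular muscle markers were all below 0, with a median of -0.21 and none called in edgeR, and summed to 33022 to 37806 CPM in Ang II and 38080 to 48057 CPM in saline. Of the endothelial markers 0 of 9 were called, with 7 above 0 and 2 below. Over all genes tested, 1.57% were called higher. The part of these shifts in the higher Postn and Cilp was not tested.

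In mice given FI, both genes were lower than with Ang II alone, and neither difference passed the threshold across all genes. The mean CPM in Ang II + FI was 0.591 of that in Ang II for Postn and 0.648 for Cilp. Without Ang II + FI replicate 3, the lowest of its group for both genes, these were 0.624 and 0.661. The log2 fold change was -0.69 ± 0.16 for Postn and -0.56 ± 0.14 for Cilp, each with an adjusted p of 0.411 in edgeR. Without Ang II + FI replicate 3 the values were -0.58 ± 0.15 and -0.50 ± 0.15, each with an adjusted p of 0.542. DESeq2 called Postn lower with 12 libraries (adjusted p = 0.0321) and not with 11 (adjusted p = 0.0915). Over all alternatives with 12 libraries the adjusted p ranged between 0.0321 and 0.701 for Postn and between 0.0741 and 0.701 for Cilp.

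Marker sums of other cells differed alongside these lower levels. These sums are on library totals, where the median log2 fold change of all genes was -0.04 with 12 libraries and -0.10 with 11. The 8 markers of resting fibroblasts summed to 2012 to 2130 CPM in Ang II + FI and 2137 to 2410 CPM in Ang II. The gap was narrow, and Gsn, the largest part of the sum, overlapped (1113 to 1190 CPM and 1122 to 1261 CPM). The 9 endothelial markers summed to 562 to 669 CPM in Ang II + FI and 711 to 958 CPM in Ang II, with no overlap. None of the resting fibroblast and endothelial markers was called, and all had counts in at least 1 library. All 9 endothelial markers were below 0 on the log2 scale. Of the resting fibroblast markers 6 were below 0 and 2 above, or 5 and 3 with 11 libraries. Smooth muscle and pericyte markers (6 genes) summed to 633 to 787 CPM in Ang II + FI and 786 to 946 CPM in Ang II, and the 10 macrophage markers to 294 to 333 CPM in Ang II + FI and 330 to 375 CPM in Ang II, in both cases with a narrow overlap. The 8 ventricular muscle markers were all above 0 on the log2 scale, with a median of 0.18, or 0.26 with 11 libraries, and none called in edgeR. They summed to 35271 to 45412 CPM in Ang II + FI and 33022 to 37806 CPM in Ang II. Without Ang II + FI replicate 3 the first range was 38467 to 45412 CPM, above every Ang II library. Without that library the resting fibroblast sums began at 2084 CPM and the endothelial sums at 570 CPM. Smooth muscle and pericyte sums then began at 633 CPM and macrophage sums at 313 CPM. The part of these shifts in the lower Postn and Cilp was not tested.

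With FI, both genes still stood above saline. Ang II + FI over saline gave a log2 fold change of 1.11 ± 0.16 for Postn (edgeR adjusted p = 0.0120) and 1.36 ± 0.15 for Cilp (edgeR adjusted p = 0.00163). With 11 libraries it was 1.21 ± 0.15 for Postn (edgeR adjusted p = 0.00389) and 1.41 ± 0.15 for Cilp (edgeR adjusted p = 0.00141). For Postn the call was lost when the 2 groups were fitted alone, where edgeR gave an adjusted p of 0.0523. The contrast with saline and the contrast with Ang II share the 4 Ang II + FI libraries.

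**Figure D1:**
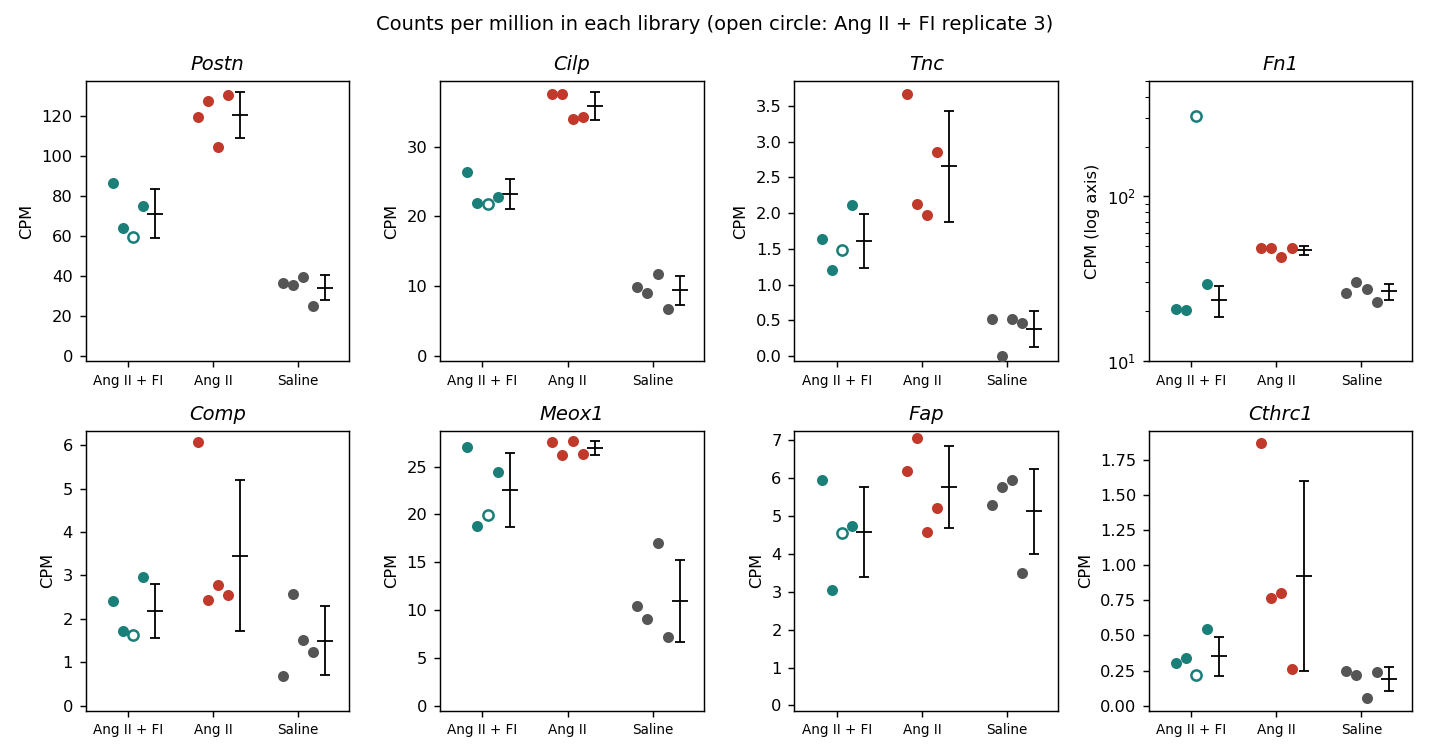
CPM of each of the 8 genes (vertical axis, log scale for Fn1 and linear for the others) in the Ang II + FI, Ang II and saline libraries, with the open circle for Ang II + FI replicate 3. With bars for the mean and SD of 4 libraries (of the 3 other Ang II + FI libraries for Fn1), Postn and Cilp form 3 separate levels, with Ang II + FI between the other groups, while Fn1 of Ang II + FI replicate 3 lies at 305 CPM.

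Tnc, on chromosome 4 at 63959785 to 64047015, encodes tenascin-C, a matricellular protein that is scarce in adult tissue and made during repair. It had 1.63, 1.20, 1.48 and 2.11 CPM in the Ang II + FI libraries, 3.67, 2.13, 1.97 and 2.85 CPM in the Ang II libraries, and 0.515, 0, 0.515 and 0.467 CPM in the saline libraries. Every library of both pump groups lay above every saline library, and Ang II + FI replicate 4 lay above Ang II replicate 3, so the pump groups overlapped. The saline values rest on few reads, with counts of 36, 0, 36 and 33, and the 0 allows a level of up to 0.0432 CPM in that library. Such limits cover counting error only.

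Tnc had a log2 fold change of 2.79 ± 0.67 for Ang II over saline, and its adjusted p of 0.0516 in edgeR was just outside the threshold. It passed with 11 libraries (edgeR adjusted p = 0.0317), without saline replicate 2 and in DESeq2 (adjusted p = 1.0e-04). Tnc stood at -0.64 ± 0.61 for Ang II + FI over Ang II (edgeR adjusted p = 0.766) and at 2.15 ± 0.66 for Ang II + FI over saline (edgeR adjusted p = 0.125). With 11 libraries these were -0.58 ± 0.62 (edgeR adjusted p = 0.842) and 2.21 ± 0.65 (edgeR adjusted p = 0.119). Against saline, Tnc of Ang II + FI passed without saline replicate 2 and in DESeq2, with an adjusted p of 0.00737 with 12 libraries and 0.0103 with 11. An exon of 8030451A03Rik overlaps 176 bases of Tnc exons on the opposite strand. Whether the counting used strand is not stated, so reads from that stretch are uncertain.

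Comp, on chromosome 8 at 70373558 to 70382066, encodes cartilage oligomeric matrix protein, a thrombospondin that binds collagen. It had 2.41, 1.73, 1.63 and 2.97 CPM in Ang II + FI, 6.07, 2.44, 2.78 and 2.56 CPM in Ang II, and 0.687, 2.57, 1.52 and 1.23 CPM in saline. All groups overlapped, and Ang II replicate 1 stood far above the rest of its group. The log2 fold change was 1.18 ± 0.40 for Ang II over saline (edgeR adjusted p = 0.146; DESeq2 adjusted p = 0.0442) and -0.57 ± 0.39 for Ang II + FI over Ang II (edgeR adjusted p = 0.655). Without Ang II replicate 1 the first value was 0.81, and with 11 libraries the second was -0.43 ± 0.40 (edgeR adjusted p = 0.807). Comp of Ang II + FI over saline was at 0.61 ± 0.39 (edgeR adjusted p = 0.472), or 0.74 ± 0.40 with 11 libraries (edgeR adjusted p = 0.411). The 8 markers of cartilage and tendon, where Comp is best known, summed to 0.874 to 2.31 CPM in Ang II + FI, 0.367 to 1.29 CPM in Ang II and 0.902 to 1.93 CPM in saline, and 2 of them had no count in any library.

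Fn1, on chromosome 1 at 71585520 to 71653200, encodes fibronectin, a matrix glycoprotein that fibroblasts assemble into fibrils and that hepatocytes also secrete into plasma. It had 20.7, 20.5, 305 and 29.2 CPM in the Ang II + FI libraries, 48.3, 48.7, 42.9 and 48.9 CPM in the Ang II libraries, and 25.9, 30.0, 27.4 and 22.9 CPM in the saline libraries. The 305 CPM belong to the library with 23662 CPM of hepatocyte markers. The other 3 Ang II + FI libraries, at 23.5 ± 4.98 CPM, lay below all Ang II libraries (47.2 ± 2.87 CPM, SD, n = 4) and overlapped the saline libraries (26.6 ± 2.95 CPM, SD, n = 4).

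All 3 contrasts of Fn1 turned on that library. With 12 libraries the log2 fold change of Ang II over saline was 0.81 ± 0.71 (edgeR adjusted p = 0.647), and with 11 libraries it was 0.80 ± 0.12 (edgeR adjusted p = 0.00658), although no Ang II or saline library differed between the fits. Between Ang II + FI and Ang II it was 0.99 ± 0.71 with 12 libraries and -0.91 ± 0.14 with 11. The edgeR adjusted p was 0.670 with 12 libraries and 0.167 with 11, and DESeq2 with 11 libraries called Fn1 lower (adjusted p = 1.77e-06) but gave it no p with 12. Against saline, Fn1 of Ang II + FI stood at 1.80 ± 0.72 with 12 libraries (edgeR adjusted p = 0.228) and -0.10 ± 0.13 with 11 (edgeR adjusted p = 0.765). An exon of Apol7d overlaps 292 bases of Fn1 exons on the opposite strand.

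Meox1, on chromosome 11 at 101877510 to 101894374, encodes a homeobox transcription factor that is induced in stressed heart fibroblasts and promotes their activation. It had 27.0, 18.7, 19.99 and 24.5 CPM in Ang II + FI, 27.5, 26.3, 27.7 and 26.4 CPM in Ang II, and 10.5, 9.06, 17.1 and 7.20 CPM in saline. Both pump groups lay above all saline libraries, and they overlapped each other. The Ang II libraries were close together, with means of 22.6 ± 3.86 CPM in Ang II + FI, 27.0 ± 0.753 CPM in Ang II and 10.9 ± 4.28 CPM in saline (SD, n = 4 each).

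Meox1 rose under Ang II by 1.29 ± 0.22 on the log2 scale (edgeR adjusted p = 0.0152), and the call was lost without saline replicate 1 (edgeR adjusted p = 0.0509). Ang II + FI stood above saline by 1.10 ± 0.22 (edgeR adjusted p = 0.0406) and, with 11 libraries, by 1.18 ± 0.22 (edgeR adjusted p = 0.0271). That call was less stable, with an adjusted p of up to 0.116 among the alternatives, and it was lost when any 1 of 9 libraries was left out: Ang II + FI replicate 1 or 4, saline replicate 1, 2 or 4, or any of the 4 Ang II libraries, which enter it through the shared spread and scaling. Against Ang II, the Ang II + FI value was -0.19 ± 0.22 (edgeR adjusted p = 0.820) and -0.11 ± 0.22 with 11 libraries (edgeR adjusted p = 0.931).

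Fap, on chromosome 2 at 62500943 to 62574075, encodes fibroblast activation protein, a membrane serine protease of the same family as Dpp4 and the target of fibroblast imaging tracers. It had 5.93, 3.06, 4.54 and 4.74 CPM in Ang II + FI, 6.19, 7.04, 4.58 and 5.21 CPM in Ang II, and 5.30, 5.75, 5.94 and 3.49 CPM in saline. The 3 groups overlapped throughout. Fap had log2 fold changes of 0.14 ± 0.22 for Ang II over saline (edgeR adjusted p = 0.830), -0.26 ± 0.22 for Ang II + FI over Ang II (edgeR adjusted p = 0.738) and -0.12 ± 0.22 for Ang II + FI over saline (edgeR adjusted p = 0.842). With 11 libraries the values with FI were -0.23 ± 0.24 against Ang II (edgeR adjusted p = 0.831) and -0.09 ± 0.24 against saline (edgeR adjusted p = 0.902).

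Cthrc1, on chromosome 15 at 39076932 to 39087121, encodes a secreted glycoprotein with a short collagen-like stretch, which marks matrix-producing fibroblasts and acts in noncanonical Wnt signalling. It was scarce, with 0.301, 0.340, 0.220 and 0.544 CPM in Ang II + FI, 1.87, 0.770, 0.804 and 0.260 CPM in Ang II, and 0.243, 0.216, 0.0573 and 0.240 CPM in saline. Ang II replicate 1 was the highest and Ang II replicate 4 only just cleared the highest saline library, and the saline values rest on counts of 17, 15, 4 and 17. The log2 fold change was 2.23 ± 0.60 for Ang II over saline (edgeR adjusted p = 0.0780; DESeq2 adjusted p = 0.00990), -1.29 ± 0.58 for Ang II + FI over Ang II (edgeR adjusted p = 0.497) and 0.93 ± 0.60 for Ang II + FI over saline (edgeR adjusted p = 0.465). Without Ang II replicate 1 the first of these was 1.68. With 11 libraries the other 2 were -1.10 ± 0.62 (edgeR adjusted p = 0.676) and 1.12 ± 0.63 (edgeR adjusted p = 0.427).

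**Figure D2:**
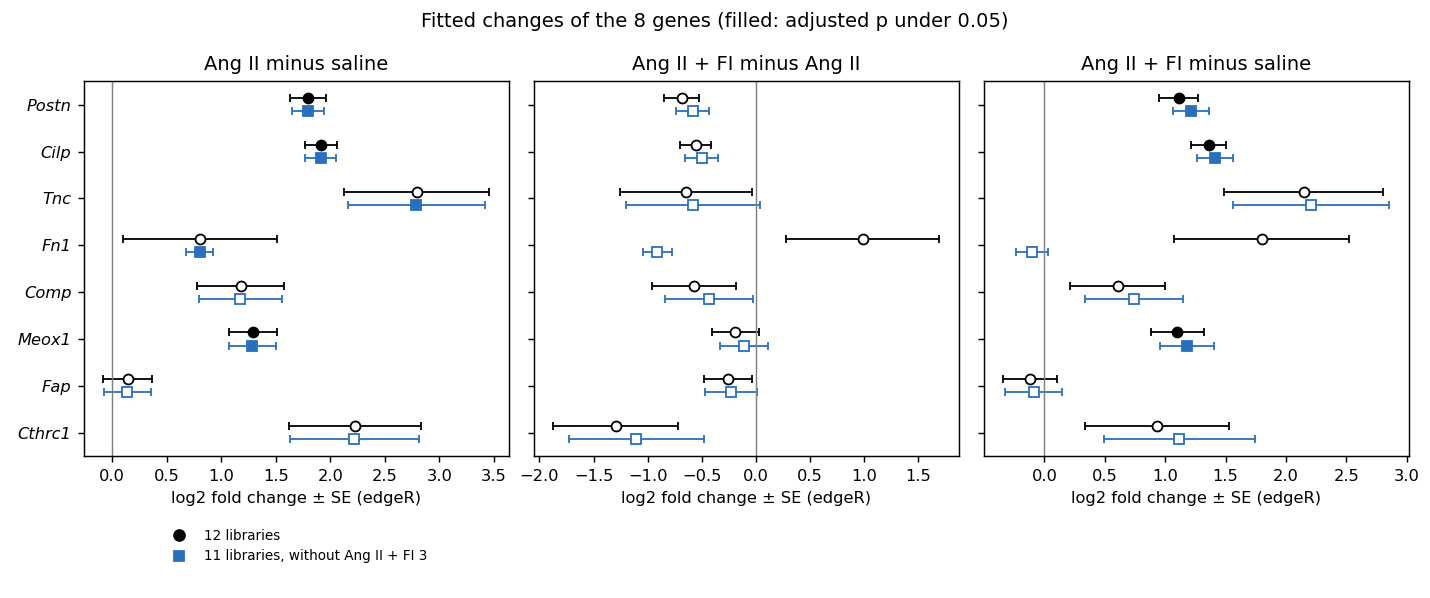
Log2 fold change with its SE (horizontal axis) of each gene in 3 contrasts, fitted by edgeR with 12 libraries (circles) and with 11 (squares), where a filled symbol has an adjusted p under 0.05. Fn1 changes sides of 0 in the contrasts with FI when Ang II + FI replicate 3 is left out, and no gene is filled for Ang II + FI minus Ang II.

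Of the 8 genes, 3 rose under Ang II (Postn, Cilp and Meox1), against a background of 1.57% of all genes tested. With 11 libraries 5 rose, with Tnc and Fn1 added, against 2.49% of all genes. By ranges, 6 genes had every Ang II library above every saline library (Postn, Cilp, Tnc, Fn1, Meox1 and Cthrc1), which 7.74% of all genes had. The median log2 fold change of the 8 genes was 1.54, and that of all genes tested was 0.00.

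Between Ang II + FI and Ang II, 0 of the 8 genes were called in edgeR, against a background of 0% of genes called lower. With 11 libraries 0 of 8 were called, against 0.00565%. An unadjusted p under 0.05 was reached by 1729 genes of either direction with 12 libraries and by 1404 with 11, and DESeq2 called 1 of the 8 genes in each fit. Non-overlap was seen for 2 genes with every Ang II + FI library below every Ang II library (Postn and Cilp), which 5.12% of all genes had. With 11 libraries it was seen for 3, with Fn1 added, which 9.89% of all genes had. The median log2 fold change of the 8 genes was -0.56, or -0.54 with 11 libraries, against 0.02 and 0.00 over all genes.

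Between Ang II + FI and saline, 3 genes were called higher (Postn, Cilp and Meox1), against 0.719% of all genes, and the same 3 were called with 11 libraries, against 0.932%. All Ang II + FI libraries lay above all saline libraries for 4 genes, with Tnc added, which 3.52% of all genes had. With 11 libraries this held for 5, with Cthrc1 added, which 4.72% of all genes had.

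Per kilobase of exon, which allows levels of different genes to be set side by side, the Ang II libraries held 13.9 ± 1.34 CPM per kb of Postn and 12.1 ± 0.338 CPM per kb of Meox1, whose ranges overlapped. Cilp followed at 8.43 ± 0.474 and Fn1 at 4.04 ± 0.246 CPM per kb, each clear of its neighbours. Comp at 1.17 ± 0.588, Fap at 1.02 ± 0.191, Cthrc1 at 0.581 ± 0.425 and Tnc at 0.342 ± 0.100 CPM per kb formed a lower tier in which neighbouring ranges overlapped (SD, n = 4 each). In saline the order began with Meox1 at 4.91 ± 1.92 and Postn at 3.93 ± 0.731 CPM per kb, again with overlap, and ended with Tnc at 0.0482 ± 0.0322 CPM per kb.

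Relative to Postn within each library, a measure that does not depend on scaling between libraries, Fap and Fn1 stood lower under Ang II than in saline without overlap. Postn itself rose by 1.80 on the log2 scale, so a gene that changed little has a lower ratio. How many of all genes stood lower in this way was not counted. Fap had a mean log2 ratio of -4.39 ± 0.21 in Ang II and -2.74 ± 0.09 in saline (SD, n = 4 each), a difference of -1.66. Fn1 had a mean log2 ratio of -1.35 ± 0.06 in Ang II and -0.35 ± 0.20 in saline, a difference of -1.0. Each had an exact two-sided permutation p of 0.0286, the smallest that 4 against 4 libraries allow, and an adjusted p of 0.133 over 14 tests, so neither passed. An adjusted p under 0.05 would need most of the 14 tests to reach that smallest p. Not passing is therefore no evidence of equal ratios, here or in the contrast with FI. Cilp differed by 0.12 between Ang II and saline (exact permutation p = 0.200, adjusted p = 0.400), and Meox1 by -0.46 (exact permutation p = 0.0571, adjusted p = 0.200).

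Between Ang II + FI and Ang II, the ratio of Meox1 to Postn was higher in all 4 Ang II + FI libraries than in any Ang II library. Its mean was -1.66 ± 0.09 in Ang II + FI and -2.16 ± 0.18 in Ang II, a difference of 0.50 (exact permutation p = 0.0286, adjusted p = 0.133), or 0.47 without Ang II + FI replicate 3 (exact permutation p = 0.0571, with 0.0286 the smallest possible). For Cilp the difference was 0.14 (exact permutation p = 0.229, adjusted p = 0.400) and for Fap 0.42 (exact permutation p = 0.0857, adjusted p = 0.200). Without Ang II + FI replicate 3 it was 0.09 for Cilp (exact permutation p = 0.429), 0.33 for Fap (exact permutation p = 0.143) and -0.34 for Fn1 (exact permutation p = 0.0857). Both sets of ratios use the same Ang II libraries. Postn itself was at -0.69 for Ang II + FI minus Ang II, so a gene that changed little has a higher ratio in that contrast. For Tnc, Comp and Cthrc1 the differences were 1.29, -0.62 and 0.02 for Ang II minus saline and 0.08, 0.18 and -0.29 for Ang II + FI minus Ang II, all with an adjusted p of 0.200 or more by the exact permutation test. Without Ang II + FI replicate 3 the second set was 0.02, 0.22 and -0.21. The 1.29 for Tnc includes saline replicate 2, with a count of 0 and a ratio of -9.48. The other saline libraries had Tnc ratios of -6.14 to -5.60.

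**Figure D3:**
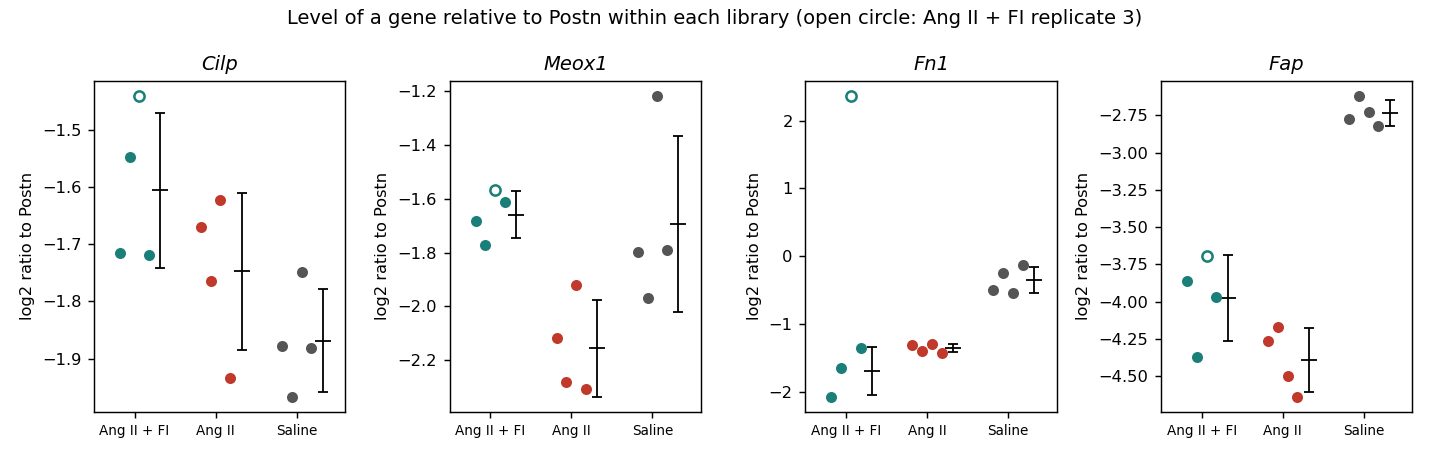
Log2 ratio of Cilp, Meox1, Fn1 and Fap to Postn (vertical axis, CPM plus 0.05) in each library of the 3 groups, with mean and SD bars and an open circle for Ang II + FI replicate 3, which the Fn1 bar leaves out. The Fap ratio is near -2.74 in saline and lower in both pump groups, and the Meox1 ratio of all Ang II + FI libraries lies above that of all Ang II libraries.

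Across the 11 libraries, Cilp had the profile most like that of Postn among 11945 protein-coding genes that averaged 1 CPM or more. Likeness was the root mean square (RMS) difference between log2 CPM profiles, each centred on its own mean, and was 0.13 for this pair. Next to Postn came Col8a1 (0.16), a short-chain collagen, Thbs1 (0.23), a matricellular activator of TGF-beta, Mfap4 (0.23), a microfibril protein, and Ttc9 (0.24). Next to Cilp came Postn (0.13), Col8a1 (0.21), Thbs1 (0.25), Thbs4 (0.26), a thrombospondin of the stressed heart, and Timp1 (0.26), an inhibitor of matrix metalloproteinases. Of the other 6 genes, Meox1 ranked 11 for likeness to Postn and 8 for likeness to Cilp, Fn1 ranked 497 and 686, Comp 586 and 447, Fap 2842 and 3412, and Tnc 11780 and 11683. Cthrc1 fell short of 1 CPM and was not ranked. These are descriptions over libraries that share group means, and genes with large changes cannot rank near genes with small ones. The Tnc profile includes a count of 0 in saline replicate 2, against 33 to 36 in the other saline libraries. Its SD was 1.97 on the log2 scale, against 0.85 for Postn. Ranks without saline replicate 2 were not computed.

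**Figure D4:**
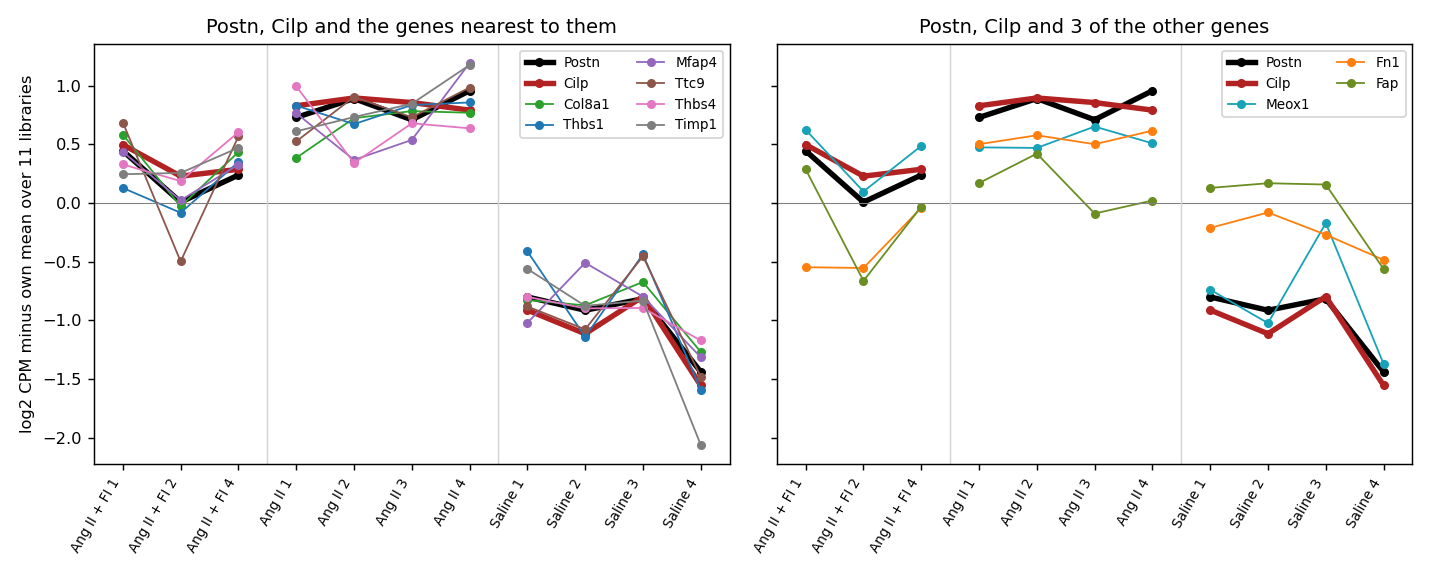
Log2 CPM minus the gene's own mean over 11 libraries (vertical axis) in each Ang II + FI, Ang II and saline library, for Postn, Cilp and the genes nearest to either (left) and for Postn, Cilp, Meox1, Fn1 and Fap (right). Saline replicate 4 is the lowest library for Postn and Cilp, and Fn1 of Ang II + FI replicates 1 and 2 lies below every saline library.

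Most other genes known from activated fibroblasts also rose under Ang II. Of 31 such genes, 30 were tested, 17 rose and 1 fell, with a median log2 fold change of 0.90 against 0.00 for all genes. Over all genes tested, 1.57% were called higher. The list was chosen with earlier results of these data known. Ltbp2, a microfibril protein, rose by 2.11 ± 0.22 (edgeR adjusted p = 0.000809), Col8a1 by 1.57 ± 0.16, Ccn2, a matricellular target of TGF-beta and YAP, by 1.20 ± 0.11 and Col1a1, the main fibrillar collagen chain, by 0.98 ± 0.10, the last of these with the highest adjusted p, 0.000858. The gene that fell was Lrrc15, a membrane marker of TGF-beta-driven fibroblasts in other tissues, at -0.57 (edgeR adjusted p = 0.0301), which was named after its values were seen. Acta2, the smooth muscle actin of myofibroblasts and of vessel walls, was at -0.31 (edgeR adjusted p = 0.555) and was also named after its values were seen.

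With FI added to Ang II, 0 of these 30 genes were called in edgeR and 26 had a log2 fold change below 0, with a median of -0.42 against 0.02 for all genes. With 11 libraries 0 were called in edgeR and 27 were below 0, with a median of -0.37 against 0.00 for all genes. DESeq2 called 4 lower with 12 libraries, Col1a1 (adjusted p = 0.0153), Col3a1 (adjusted p = 0.0158), Col1a2 (adjusted p = 0.0223) and Loxl2 (adjusted p = 0.0400), and 0 with 11. Col3a1 averaged 162 ± 15.3 CPM in Ang II + FI and 284 ± 57.3 CPM in Ang II, Col1a1 54.6 ± 2.75 CPM in Ang II + FI and 80.7 ± 9.21 CPM in Ang II, and Loxl2, a collagen cross-linking enzyme, 14.2 ± 1.74 CPM in Ang II + FI and 23.1 ± 2.29 CPM in Ang II (SD, n = 4 each). For each of these 3 the groups did not overlap, and the edgeR adjusted p was 0.411. Col1a2 stood at -0.47 ± 0.10 (edgeR adjusted p = 0.411). It also showed no overlap, with 84.5 to 90.5 CPM in Ang II + FI and 119 to 144 CPM in Ang II. Every Ang II + FI library was below every Ang II library in 5.12% of all genes tested. The number among the 30 genes is not given. Ccn2 was at 0.11 ± 0.11 (edgeR adjusted p = 0.783), with 139 ± 12.2 CPM in Ang II + FI and 134 ± 20.8 CPM in Ang II. The contrast shares its Ang II libraries with that of Ang II over saline.

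Among close relatives of the 8 genes, 10 of 11 were tested and 3 rose under Ang II, against 1.57% of all genes. All 3 were thrombospondins related to Comp. Thbs4 rose by 1.63 ± 0.18 (edgeR adjusted p = 0.00137), Thbs1 by 1.62 ± 0.23 (edgeR adjusted p = 0.00712) and Thbs3 by 0.60 ± 0.14 (edgeR adjusted p = 0.0499, a call lost in 16 of 23 alternatives). Tgfbi, the paralog of Postn, was at 0.52 ± 0.13 (edgeR adjusted p = 0.0598; DESeq2 adjusted p = 0.0110). The median of the 10 was 0.50. With FI added, 0 of 10 were called in edgeR and in DESeq2, and the median was -0.08. With 11 libraries 0 of 11 were called by either tool, with a median of -0.01. Thbs1 stood at -0.74 ± 0.23 (edgeR adjusted p = 0.411), with 18.6 ± 2.74 CPM in Ang II + FI and 32.6 ± 2.24 CPM in Ang II and no overlap. Dpp4, the relative of Fap, was at 1.24 ± 0.58 with 12 libraries and -0.01 with 11, since Ang II + FI replicate 3 held 18.8 CPM and the 4 Ang II libraries 2.36 to 3.26 CPM.

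The TGF-beta input was made up of 17 genes for ligands, latency proteins, receptors, SMADs, proteases and targets. Of these, 4 rose under Ang II, against 1.57% of all genes, with a median of 0.31. Tgfb3 rose by 0.96 ± 0.14 (edgeR adjusted p = 0.00926), Tgfb1 by 0.64 ± 0.14 (edgeR adjusted p = 0.0397), Ltbp4 by 0.45 ± 0.10 (edgeR adjusted p = 0.0445) and Ltbp3, which like Ltbp4 holds latent TGF-beta in the matrix, by 0.44 ± 0.09 (edgeR adjusted p = 0.0274). The call was lost in 16 of 23 alternatives for Ltbp4, in 12 for Tgfb1 and in 9 for Ltbp3, and in 0 for Tgfb3. With FI added, 0 of 17 were called in edgeR and in DESeq2, with 12 libraries and with 11, and the median was -0.15 with 12 libraries and -0.14 with 11. Of these 17, the receptor Tgfbr2 had the smallest p, with 44.0 ± 2.54 CPM in Ang II + FI and 55.2 ± 4.28 CPM in Ang II (edgeR adjusted p = 0.440) and no overlap.

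Of 14 cell surface receptors for these matrix proteins, 1 rose under Ang II, against 1.57% of all genes. It was the fibronectin receptor chain Itga5, by 0.51 ± 0.10 (edgeR adjusted p = 0.0293, a call lost in 9 of 23 alternatives). The median of the 14 was 0.08. DESeq2 also called Itga9 (adjusted p = 0.0483) and Cd44 (adjusted p = 0.0253) higher, which edgeR did not. With FI added, 0 of 14 were called in edgeR and in DESeq2, with 12 libraries and with 11, and the median was -0.04 with 12 libraries and -0.06 with 11. Itgb8, a chain of an integrin that activates latent TGF-beta, was at -0.55 ± 0.20 (edgeR adjusted p = 0.433). Itgb3, a chain of the integrin that binds periostin, had 0.853 ± 0.252 CPM in Ang II + FI and 1.56 ± 0.442 CPM in Ang II, with no overlap (edgeR adjusted p = 0.430). Sdc4, a syndecan that binds fibronectin, stood at 2.40 ± 0.87 with 12 libraries and at -0.10 with 11, as Ang II + FI replicate 3 held 150 CPM. The Wnt partners of Cthrc1 (Wnt5a, Ror2 and Fzd6) gave 0 of 3 calls in both contrasts in edgeR and in DESeq2, with medians of 0.01 for Ang II over saline and -0.20 for Ang II + FI over Ang II, or -0.15 with 11 libraries.

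**Figure D5:**
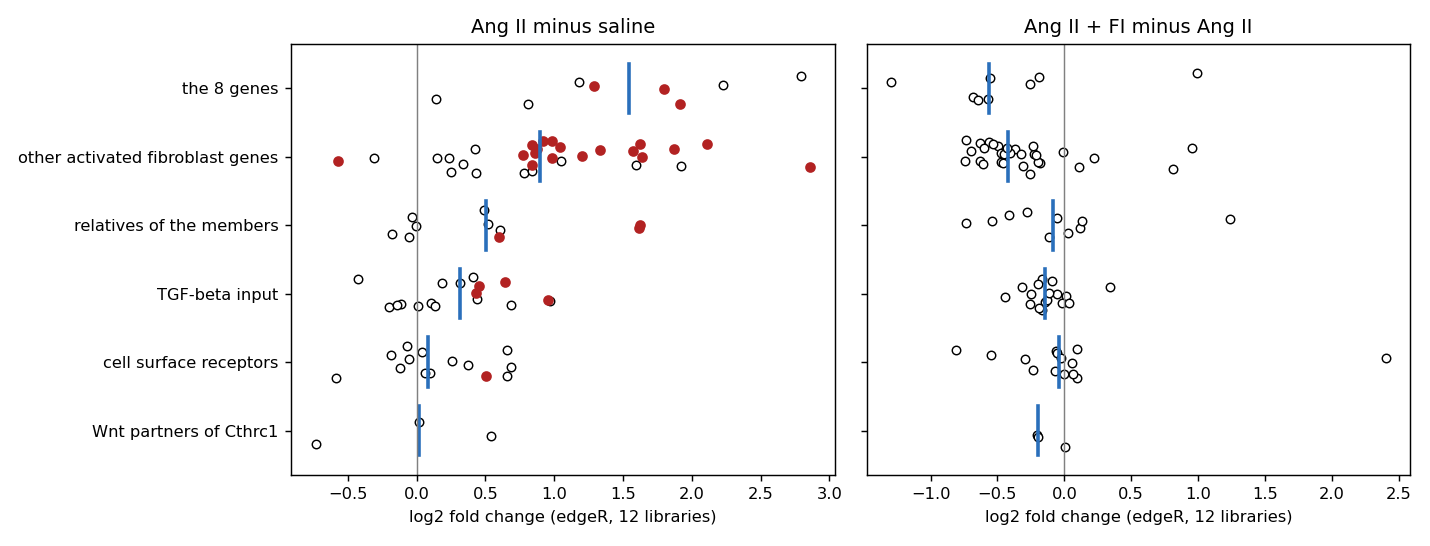
Log2 fold change of each tested gene (points, horizontal axis) by list, for Ang II minus saline and Ang II + FI minus Ang II with 12 libraries, where red points have an adjusted p under 0.05 and the blue line is the list's median. The 8 genes have a median of 1.54 for Ang II minus saline and -0.56 for Ang II + FI minus Ang II, where no point is red.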

How the data were processed

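RNA from 12 ventricular samples was sequenced, with 4 libraries in each group by the treatment label. The values are counts of reads per gene, deposited by the authors without normalization, with a column for each library. The tools were featureCounts 1.5.0-p3, HISAT and DESeq 1.8.3 on build GRCm38, per the submitters' processing notes. Neither the annotation release nor the strand setting is stated in the labels, which name both TRIzol and an RNeasy kit for the RNA.

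CPM were computed from library totals, and CPM per kb from merged exon lengths in GENCODE M21 (GRCm38), which matched 99.7% of gene IDs. A count of 3, the limit that a count of 0 allows, equals 0.0372 to 0.0436 CPM. The main test was edgeR 4.0.16 (R 4.3.3) with filterByExpr, TMM scaling and the quasi-likelihood test, in 1 fit of 3 group means, with Benjamini-Hochberg adjustment over all 17376 genes tested (17702 with 11 libraries) and a threshold of 0.05. It was tested on simulated data. Each SE of an edgeR log2 fold change was derived from the test, as the size of the change divided by the square root of its F statistic. Log2 ratios to Postn used CPM plus 0.05 and an exact two-sided permutation test, adjusted over 7 genes and 2 contrasts. Alternatives were DESeq2 1.42.0, limma-voom (limma 3.58.1), RLE and upper quartile scaling, library totals, no filter, at least 1 CPM in 4 libraries, mitochondrial genes left out, a replicate block, the 2 groups alone, each library left out, and both libraries with liver transcripts left out. Replicate numbers did not pair the libraries.

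The 8 genes and the gene lists were chosen with earlier results of these data known. The genes named are the 8, from each list up to 4 with the smallest p for Ang II over saline and up to 4 for Ang II + FI over Ang II, and the 5 nearest profiles to Postn and to Cilp.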

Additional observations from a re-analysis of the deposited data

Results flagged for a closer look

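In 24 groups of 4 libraries (8 genes in 3 groups), 5 values stood apart from the other 3 by more than Dixon's 95% limit, and chance gives about 1 such value in 20 groups. Fn1 was at 305 CPM in Ang II + FI replicate 3, where the rest of the group had 20.5 to 29.2 CPM, and that library also held 23662 CPM of hepatocyte markers. Fn1 was at 42.9 CPM in Ang II replicate 3, the lowest of its group in CPM on library totals. That library held 43.6 CPM of hepatocyte markers. With TMM scaling, in the centred log2 profiles over 11 libraries, Fn1 did not stand apart there. It was at 0.50 in Ang II replicates 3 and 1, 0.58 in replicate 2 and 0.62 in replicate 4. Comp was at 6.07 CPM in Ang II replicate 1, above the 2.44 to 2.78 CPM of the other 3 libraries. Tnc was at 0 CPM in saline replicate 2, where the other saline libraries had 33 to 36 counts. Cthrc1 was at 0.0573 CPM in saline replicate 3, from 4 counts. The causes were not tested.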

How the results depend on the processing

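The number of the 8 genes called higher in Ang II than in saline was 3, and was 6 in DESeq2 and 2 to 5 with 1 library left out. Against saline, 3 were called in Ang II + FI, 1 (Cilp) with the 2 groups alone and 4 (with Tnc added) in DESeq2. For Ang II + FI against Ang II, 0 were called lower, and DESeq2 called 1 with 12 libraries (Postn) and 1 with 11 (Fn1), where leaving out 1 library gave 0 to 1, the call being Fn1 without Ang II + FI replicate 4 (edgeR adjusted p = 0.0235). Over all genes, calls for Ang II against saline were 273 higher and 115 lower, with 79 higher and 11 lower without saline replicate 4 and 653 and 422 in DESeq2 as the extremes of the alternatives. Ang II + FI against saline gave 125 and 45, with 35 (the 2 groups alone) to 481 (DESeq2) and 5 (without saline replicate 1) to 347 (DESeq2). Ang II + FI against Ang II gave 0 and 0, with up to 12 and 33 in DESeq2. With 11 libraries the counts were 441 and 242 (196 to 865 and 54 to 600), 165 and 55 (37 to 490 and 6 to 308), and 0 and 1 (up to 8 and 18), in the same order. The cause was not tested. Under the alternatives run, Postn, Cilp, Tnc, Comp and Cthrc1 kept their direction in every contrast.

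Signs turned for values near 0 or resting on Ang II + FI replicate 3. In Ang II + FI minus Ang II, Fn1 was at -0.015 in limma-voom, -0.93 without both libraries with liver transcripts, and -0.91 to 1.32 with 1 library left out. Sdc4 was at -0.074 without both and -0.10 to 2.76 with 1 left out, and Dpp4 at -0.0084 to 1.51. Wnt5a, at 0.01, was at -0.060 in limma-voom, -0.022 with upper quartile scaling, -0.028 with library totals, -0.046 with the replicate block and -0.32 to 0.24 with 1 left out. With 11 libraries Meox1 was at 0.0048 with the replicate block and -0.22 to 0.029 with 1 left out. In Ang II + FI minus saline, Fn1 was at -0.10 without both and -0.10 to 2.13 with 1 left out, and Fap at -0.28 to 0.030, or -0.32 to 0.13 with 11 libraries. For Ang II minus saline, Fap was at -0.0051 to 0.21 and Fzd6 at -0.074 to 0.070. Log2 ratios to Postn turned for Cthrc1 with 0.5 CPM added (-0.88 for Ang II minus saline, 0.13 for Ang II + FI minus Ang II) and with 1 library left out (-0.41 to 0.52 and -0.79 to 0.13), and for Tnc (-0.042 to 0.25) and Fn1 (-0.34 to 1.14) for Ang II + FI minus Ang II with 1 left out.

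Same-numbered libraries did not deviate together (r of -0.06 to 0.10 over 12 pairs, 4 of which matched best with their own number). The highest r, 0.10, was that of Ang II + FI replicate 3 with Ang II replicate 3, the 2 libraries with liver transcripts. With the replicate block, the same number of the 8 genes were called for Ang II against saline (3) and for Ang II + FI against Ang II (0), and 2 for Ang II + FI against saline, while all genes gave 105 higher and 19 lower for Ang II against saline and 51 and 10 for Ang II + FI against saline. Depth limits Tnc and Cthrc1 in saline, with at most 36 and 17 counts per library.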

Other observations

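The lowest and the highest library of each group were counted over the 8 genes. The same counts over all genes were not made, so no tendency of a library can be read from these. Ang II + FI replicates 2 and 3 were each the lowest of their group in 4 of 8 genes and Ang II + FI replicate 1 the highest in 4. Ang II replicate 3 was the lowest of its group in 5 of 8, saline replicate 4 was the lowest in 5 and saline replicate 3 the highest in 5. Saline replicate 4 also had the lowest endothelial marker sum of its group, 514 CPM, and the highest sum of ventricular muscle markers of all 12 libraries, 48057 CPM.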
